A study of Mus musculus with 2 samples.

Results

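The genes described here are 57 listed genes of phosphoinositide, diacylglycerol and mTOR signalling, followed across the binding map of the nuclear receptor PPARγ in cultured mouse TH2 cells. The list names phosphoinositide 3-kinase (PI3K) subunits, inositol lipid kinases and phosphatases, phospholipases C, diacylglycerol kinases, IP3 receptors, AKT and mTOR genes. It was drawn up with the peaks of these data known, and Inpp4b and Plcl2 were singled out in it for holding several peaks. All 57 symbols were found among 21951 annotated protein-coding genes. A PPARγ peak was assigned to one of them when the transcription start site (TSS) nearest to the peak centre, among all annotated transcripts of protein-coding genes, was theirs and lay within 100 kb. By that rule 32 of the 2537 deposited peaks belonged to 14 of the 57 genes, and 43 genes had none.

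The study used naive CD4+ T cells of C57BL/6J mice, activated under TH2 conditions and infected on days 1 and 2 with a retrovirus that carries Pparg with a TY1 tag. On day 4 a TY1 antibody was used for chromatin immunoprecipitation and sequencing (ChIP-seq), giving 1 ChIP library, and 1 input library of the same tagged cells was sequenced without antibody. The map therefore shows the introduced, tagged receptor and not the endogenous one, and cells without the tagged receptor were not analysed here. There was no replicate, no expression was measured, and the labelled cell type could not be checked against marker genes. The ChIP library held 10229438 tags, of which 54617 (0.53%) lay in peaks, a mean of 21.5 tags per peak. The deposited rows carry the same score of 1 throughout, so each peak is present or absent and has no height.

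In T cells, antigen receptor and cytokine signals activate PI3K, which phosphorylates the membrane lipid PIP2 to PIP3 and so recruits the kinases PDK1 and AKT. Lipid phosphatases remove phosphates from PIP3 and its products, and phospholipase C cleaves PIP2 into IP3, which opens calcium channels of the endoplasmic reticulum, and diacylglycerol, which activates protein kinase C and RasGRP until diacylglycerol kinases convert it to phosphatidic acid. AKT relieves the block that the TSC1 and TSC2 proteins place on the GTPase RHEB, the direct activator of the growth-promoting kinase complex mTORC1. PPARγ binds DNA with its partner RXR at DR1 elements, direct repeats of AGGTCA with 1 base between them.

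The sequences below are those of the listed genes' peaks that hold a DR1 match (AGGTCANAGGTCA, where at most 2 of the 12 specified bases may differ) or, with one exception at Pik3ap1, an exact AP-1 match (TGACTCA, the site of FOS and JUN factors), both searched on either strand. Added to them, by choice after their values were seen, are the upstream peak of Phlpp2 and the promoter peaks of Mtor and Mlst8. All are read from the GRCm38 (mm10) plus strand except Mlst8. Capitals mark the DR1 match in the first 3, the AP-1 match in the next 4 and 2 exact AGGTCA cores (here as TGACCT on the plus strand) in Phlpp2. The last pair held neither a DR1 nor an AP-1 match and has no capitals.
Inpp4b intron 2, chr8:81702117-81702289: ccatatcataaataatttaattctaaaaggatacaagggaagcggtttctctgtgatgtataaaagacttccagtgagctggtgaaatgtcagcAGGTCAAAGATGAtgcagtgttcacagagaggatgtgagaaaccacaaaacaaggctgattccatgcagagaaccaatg
Plcl2 intron 4, chr17:50657251-50657423: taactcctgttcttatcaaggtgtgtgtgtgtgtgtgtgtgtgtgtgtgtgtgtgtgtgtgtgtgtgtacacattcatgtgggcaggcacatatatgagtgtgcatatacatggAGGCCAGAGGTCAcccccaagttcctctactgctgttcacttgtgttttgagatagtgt
Itpr1 intron 4, chr6:108328223-108328395: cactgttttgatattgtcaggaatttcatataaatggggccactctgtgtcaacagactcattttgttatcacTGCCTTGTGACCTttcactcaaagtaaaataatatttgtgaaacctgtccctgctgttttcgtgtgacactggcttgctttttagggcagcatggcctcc
Inpp4b intron 8, chr8:81867112-81867284: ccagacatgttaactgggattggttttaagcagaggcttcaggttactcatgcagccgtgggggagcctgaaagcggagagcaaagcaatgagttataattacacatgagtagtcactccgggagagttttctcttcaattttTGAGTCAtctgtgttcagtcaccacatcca
Inpp4b intron 11, chr8:81931927-81932099: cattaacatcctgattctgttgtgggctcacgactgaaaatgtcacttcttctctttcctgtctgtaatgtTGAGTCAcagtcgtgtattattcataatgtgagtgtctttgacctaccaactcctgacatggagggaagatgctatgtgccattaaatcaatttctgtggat
Plcl2 intron 1, chr17:50570944-50571116: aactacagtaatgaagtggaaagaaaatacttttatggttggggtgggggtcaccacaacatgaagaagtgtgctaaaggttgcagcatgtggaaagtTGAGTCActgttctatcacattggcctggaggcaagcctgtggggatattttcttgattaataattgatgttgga
Pip4k2a intron 1, chr2:18928389-18928561: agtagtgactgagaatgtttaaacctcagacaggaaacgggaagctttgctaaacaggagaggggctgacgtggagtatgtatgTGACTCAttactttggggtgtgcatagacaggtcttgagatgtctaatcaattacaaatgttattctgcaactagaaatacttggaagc
Phlpp2 upstream, chr8:109865755-109865927: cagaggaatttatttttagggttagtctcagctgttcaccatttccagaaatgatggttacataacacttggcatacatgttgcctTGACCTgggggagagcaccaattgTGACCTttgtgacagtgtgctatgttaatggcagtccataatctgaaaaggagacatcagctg
Mtor promoter, chr4:148448124-148448296: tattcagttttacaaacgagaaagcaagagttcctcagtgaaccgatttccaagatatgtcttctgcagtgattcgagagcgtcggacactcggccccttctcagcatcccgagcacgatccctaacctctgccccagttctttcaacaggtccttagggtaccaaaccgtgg
Mlst8 promoter, the 42 bases of the peak upstream of every annotated start, minus strand, chr17:24479079-24479120: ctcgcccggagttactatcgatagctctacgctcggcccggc

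The first question was which steps of the pathway carried peaks. Peaks stood at 14 of 57 genes (24.6%, exact 95% binomial interval 14.1 to 37.8), where 7.91% of all protein-coding genes had one. The listed genes are long, with a median of 77.2 kb against 17.4 kb for all coding genes, and longer genes had peaks more often. Of coding genes at least as long as the median listed gene, 18.8% had a peak, and 11 of the 29 listed genes of that length did. Of coding genes with at least the listed genes' median territory (74.8 kb of sequence nearest to their start sites), 14.5% had a peak, against 10 of 29 listed genes. No test was made, since the genes were proposed with results of these data in view, and the intervals cover counting error only. By role the genes form groups of 1 to 9, too small to set apart from other genes: the exact interval of each group's share includes 7.91%, except for the 2 AKT phosphatase genes and the 3 IP3 receptor genes, whose counts fell from 2 to 1 each with basic transcripts.

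The peaks were unevenly spread over the 14 genes. Plcl2 had 8 and Inpp4b 6, together 14 of the 32 peaks. Rheb had 3, Itpr1, Itpr2, Mtor and Pip4k2a had 2 each, and Phlpp1, Phlpp2, Itpkb, Pik3ap1, Pik3r1, Dgkd and Mlst8 had 1 each. Thus 7 of 57 listed genes had at least 2 peaks and 3 had at least 3, where 1.59% and 0.424% of all coding genes did. Inpp4b and Plcl2 are 2 of those 3 and were singled out for their peaks, so these counts are partly set by that choice. Gene length was not matched in this comparison. Many of these assignments depend on the choice of transcripts: for 19 of the 32 peaks the nearest start lies outside the GENCODE basic transcript set. With basic transcripts alone, an alternative added after the data were seen, 26 peaks fell at 12 of the listed genes (7.65% of all coding genes), Inpp4b kept 6 peaks and Plcl2 5, Itpr2 kept 1, and Itpr1 and Phlpp2 had none.

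**Figure D1:**
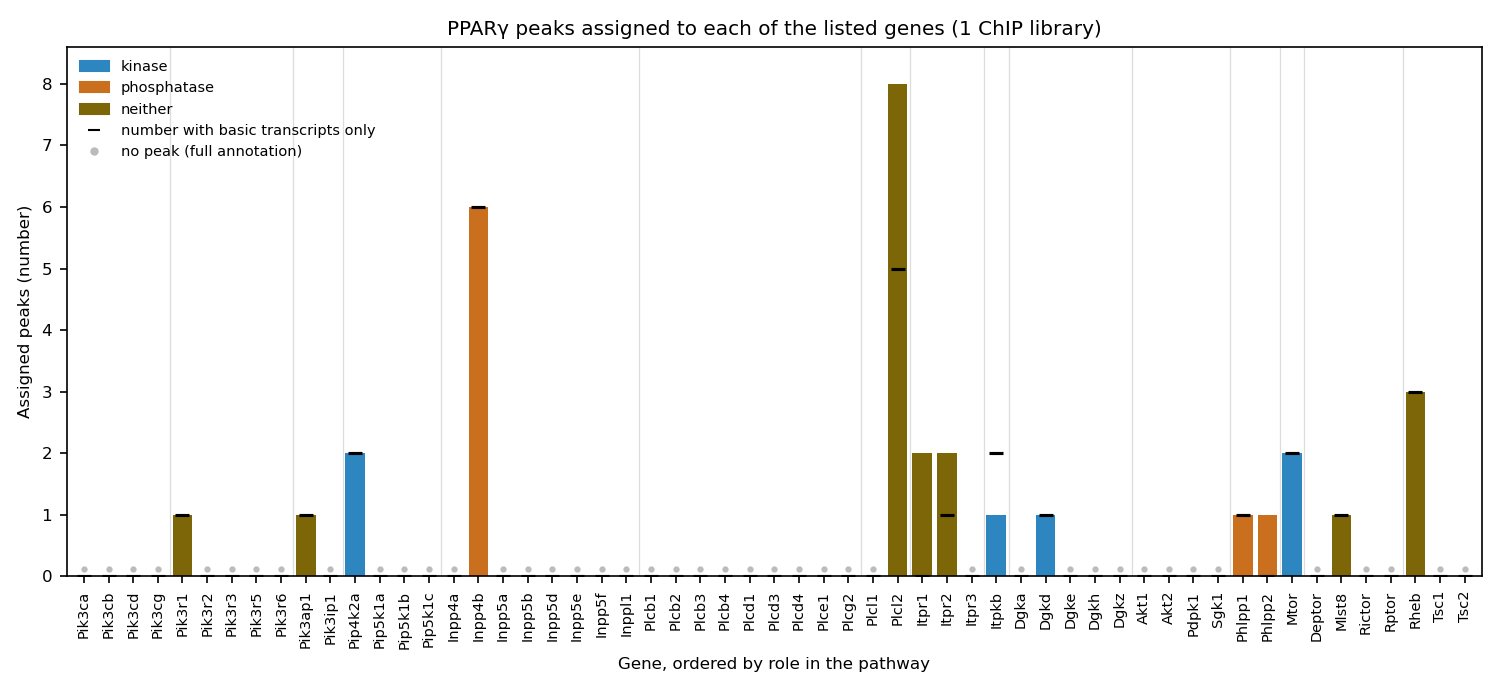
Number of assigned PPARγ peaks (y axis) at each of the 57 genes (x axis, ordered by role), as bars coloured by kinase, phosphatase or neither. Black ticks give the number with basic transcripts only, which is lower at Plcl2 (5 against 8), Itpr1 (0 against 2), Itpr2 (1 against 2) and Phlpp2 (0 against 1) and higher at Itpkb (2 against 1), and grey dots mark the 43 genes without a peak.

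Of the 11 genes of PI3K subunits, adaptor and inhibitor, Pik3r1 and Pik3ap1 had a peak (18.2%, exact interval 2.28 to 51.8, which includes the 7.91% of all coding genes). The 4 catalytic subunit genes (Pik3ca, Pik3cb, Pik3cd and Pik3cg) had 0, too few genes to set apart from 7.91% (exact upper bound 60.2%). Pik3cd and Pik3cg encode the leukocyte forms p110δ and p110γ. The peak nearest to a start site of Pik3cd was 892 kb away, and that nearest to a start site of Pik3cg lay 91.1 kb away and was assigned to Ccdc71l. Of 5 regulatory subunit genes, Pik3r1, which encodes p85α, had 1 intergenic peak (chr13:101599691-101599863) beyond the 3′ end of the gene, 92.6 kb from its nearest start site, close to the limit of the rule. The next coding gene, Slc30a5, was 766 kb from that peak. Pik3r2, Pik3r3, Pik3r5 and Pik3r6 had none. Pik3ap1, the gene of the PI3K adaptor BCAP, had 1 intergenic peak (chr19:41398121-41398293) 13.1 kb upstream, with 1 AP-1 match, and 72.8% of its sequence was repeat-masked. Pik3ip1, which encodes an inhibitor of PI3K, had none.

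Among the kinases that make PIP2, Pip4k2a had 2 peaks and Pip5k1a, Pip5k1b and Pip5k1c had none. The share of these genes with a peak, 25.0%, has an exact interval (0.631 to 80.6) that includes the 7.91% of all coding genes. Both Pip4k2a peaks lay in intron 1, at 20.9 and 22.2 kb from the nearest start sites. The peak at 22.2 kb held an AP-1 match 1 bp from its centre (capitals above), and the other (chr2:18977091-18977263) held neither AP-1 nor DR1. That second peak was nearly as close to the start of 4930426L09Rik (21.2 kb) as to that of Pip4k2a. Pip5k1c had the nearest peak of all listed genes without an assignment, at 11.7 kb from its nearest start site, but that peak was nearest to the start of Tbxa2r.

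Of the 8 inositol phosphatase genes, Inpp4b alone had peaks by this rule, and it was singled out for them. The share of 12.5% has an exact interval (0.316 to 52.7) that includes the 7.91% of all coding genes. Inpp4b encodes the 4-phosphatase that acts on PI3K products. Inpp5d, the gene of the haematopoietic PIP3 phosphatase SHIP1, had none, and its nearest peak was 60.8 kb from a start site of the gene and assigned to Ngef. Inpp4a, Inpp5a, Inpp5b, Inpp5e, Inpp5f and Inppl1 (SHIP2) also had none, with nearest peaks between 74.4 kb (Inpp5e) and 1285 kb (Inpp4a) from their start sites.

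The 6 Inpp4b peaks were all intronic and spanned 533 kb of a gene record of 785 kb (chr8:81342556-82127914). Counted on the longest coding transcript, with 25 exons, they lay in introns 1, 2, 6, 7, 8 and 11. Gaps between neighbours ran from 12.5 kb to 303 kb. The peak in intron 7 (chr8:81854573-81854745) was the closest to a start site, 1.71 kb upstream of an internal one, and the peak in intron 6 (chr8:81779182-81779354) lay 6.16 kb from another. The peaks in introns 8 and 11 each held an AP-1 match, 60 and 12 bp from the centre. The intron 2 peak held AGGTCAAAGATGA at chr8:81702211-81702223, 14 bp from its centre. Counting from 1 at the 5′ end of the repeat, it differs from DR1 by G10A and C12G, so its upstream core is exact and its downstream core carries both changes. The closest start of another coding gene, that of Usp38, was 384 kb from one of the 6 peaks. Inpp4b had 1.04 peaks per 100 kb of territory, where all coding genes together had 0.132. Since the gene was singled out for its peaks, this describes it and is no finding.

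Of 9 phospholipase C genes (Plcb1, Plcb2, Plcb3, Plcb4, Plcd1, Plcd3, Plcd4, Plce1 and Plcg2) 0 had a peak, with an exact upper bound of 33.6% on a share that was 7.91% over all coding genes. Plcb3 came closest, with a peak 33.7 kb from its nearest start site, assigned to Esrra. Plcl2 belongs to the PLC-like proteins, which bind inositol phosphates but do not cleave lipid, and it held 8 peaks against 6 at Inpp4b. That order turned with the rule: basic transcripts gave 5 and 6, and counting the peaks inside the gene body gave 6 and 8. Its relative Plcl1 had none within 100 kb.

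The 8 Plcl2 peaks spanned 269.8 kb of chromosome 17. A pair lay upstream, 98.2 and 87.8 kb from the start, and 6 lay in introns: 3 in intron 1 and 1 each in introns 3, 4 and 5. Nearest to the start was the peak at chr17:50511582-50511754, 2.27 kb into intron 1, which held none of the 7 motifs searched. The AP-1 match in intron 1 lay 15 bp from the centre of its peak. The DR1 match in intron 4, AGGCCAGAGGTCA at chr17:50657365-50657377, was the closest to the consensus among the listed genes' peaks, with the single change T4C in the upstream core. Of the 8 peaks, 4 were more than 50% repeat-masked, including the 2 with a DR1 or AP-1 match (59.0% for AP-1 and 53.2% for DR1). Plcl2 had 2.69 peaks per 100 kb of territory, a value that, as for Inpp4b, goes with how the gene was chosen. The 3 peaks in introns 3, 4 and 5 owe their assignment to an internal start outside the basic set. From the 5′ end of the gene they lie at 129.6, 148 and 172 kb, so that with basic transcripts the DR1 peak was not assigned to Plcl2.

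**Figure D2:**
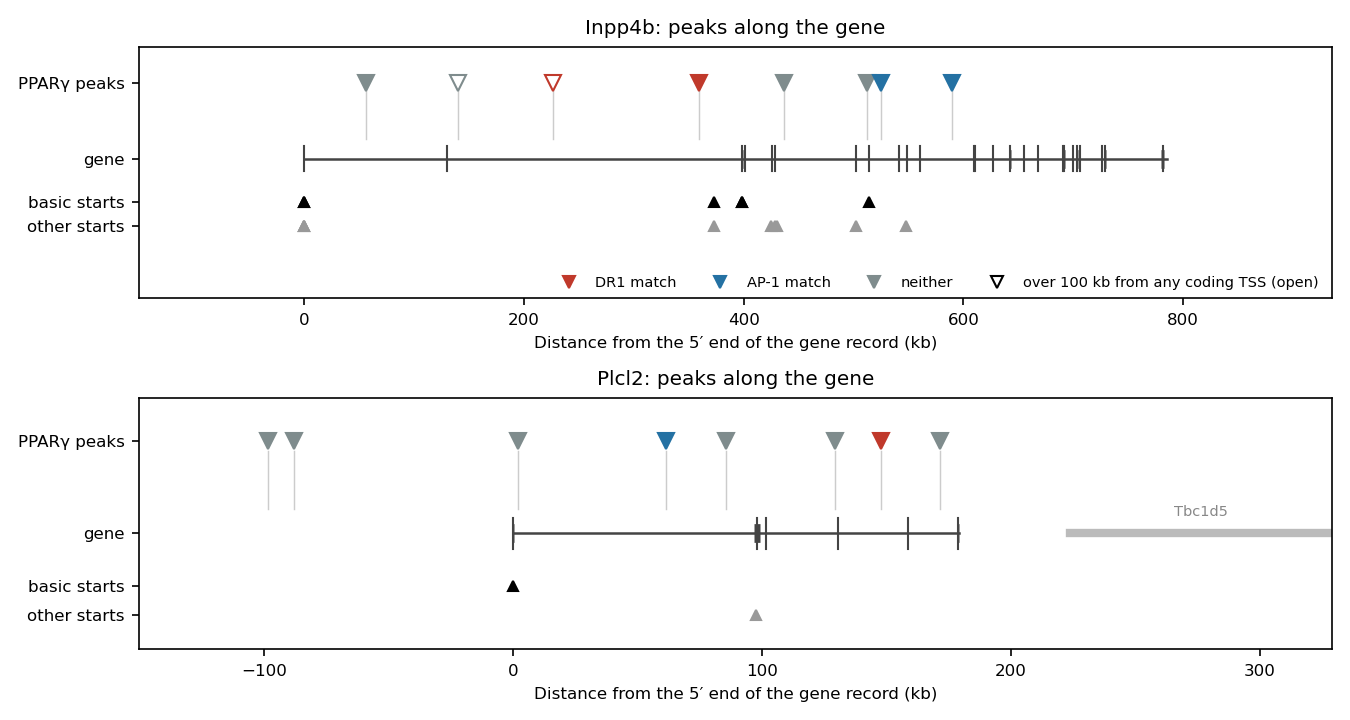
Peaks (triangles) along Inpp4b and Plcl2, with exons of the longest coding transcript as vertical ticks and annotated start sites as upward triangles; the x axis is the distance in kb from the 5′ end of the gene record. Red marks a DR1 match, blue an AP-1 match and grey neither; of the 8 peaks inside Inpp4b, the 2 open ones lie over 100 kb from any coding start site.

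Downstream of phospholipase C, peaks lay at the IP3 receptor genes Itpr1 and Itpr2, which encode calcium release channels, and none at Itpr3. Both Itpr1 peaks were in intron 4, 3.17 kb apart, at 27.9 and 31.1 kb from an internal start site. The nearer one held AGGTCACAAGGCA on the minus strand (chr6:108328296-108328308), 7 bp from the centre, with an exact upstream core and the changes G9A and T11G in the other. From the first start of the gene they lie 115 and 112 kb inside, so this pair was lost with basic transcripts. Itpr2 had a peak in intron 1, 6.90 kb from its nearest start site (chr6:146494891-146495063), with a STAT5 match, and an intergenic peak beyond its 3′ end. Itpkb, the gene of an IP3 kinase that restrains calcium and AKT signals in lymphocytes, had 1 peak 11.3 kb upstream (chr1:180319132-180319304), of which 97.7% was repeat-masked. Dgkd was the only one of 5 diacylglycerol kinase genes with a peak, in intron 3, 10.7 kb from an internal start. Dgka and Dgkz, which encode the kinases best known for limiting diacylglycerol in T cells, had none, nor had Dgke or Dgkh.

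At the AKT step Akt1, Akt2, Pdpk1 (PDK1) and Sgk1 had no peak and Phlpp1 and Phlpp2 had 1 each, where 7.91% of all coding genes had one. This split did not hold under other rules: counting peaks inside a gene or within 10 kb gave Akt1 a peak and left Phlpp1 without, and basic transcripts left Phlpp2 without. A peak assigned to Siva1 lay 12.7 kb from the nearest start site of Akt1. Phlpp1 and Phlpp2 encode phosphatases that dephosphorylate AKT. The Phlpp1 peak was intergenic, 27.4 kb upstream of the gene (chr1:106144295-106144467), and held 1 AGGTCA core. The Phlpp2 peak lay 2.70 kb upstream, in an intron of a noncoding gene record, and held 2 AGGTCA cores, 3 and 27 bp from its centre, but no DR1 match. It was 2.73 kb from the start of Ap1g1, to which basic transcripts assign it, so the 2 genes cannot be told apart as its neighbour.

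The mTOR genes held the peaks closest to start sites. Mlst8, which encodes the subunit shared by both mTOR complexes, had a promoter peak centred 4 bp from its TSS (chr17:24478948-24479120). Mtor, the gene of the kinase itself, had 2 peaks upstream, a promoter peak at 401 bp and an intergenic peak at 1259 bp (chr4:148447266-148447438), their centres 0.858 kb apart. These 2 promoter peaks were rich in CpG dinucleotides: 16 in the Mlst8 peak and 9 in the Mtor peak, where the median over all 2537 peaks was 1. Only 10.1% of all peaks are promoter peaks, and the CpG counts of the other promoter peaks were not compared. Neither held a match to any of the 7 motifs, and their best DR1 alignments had 4 mismatches (Mlst8) and 3 (Mtor). The Mtor peak at 1259 bp differed in composition, with 24.3% GC against 50.3% in the promoter peak. It held a match to the GATA site AGATAA, present in 14.3% of all peaks. Rheb had 3 peaks, all inside the gene at 1.70, 6.61 and 9.99 kb from start sites of retained-intron transcripts, and from 1.90 to 22.1 kb from the first start of a basic transcript. None of the Rheb peaks held a DR1, AP-1 or AGGTCA match, but those at 1.70 and 9.99 kb each held a GATA site. The genes of the mTOR complex partners Rptor, Rictor and Deptor, and Tsc1 and Tsc2, which hold RHEB in check, had none.

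**Figure D3:**
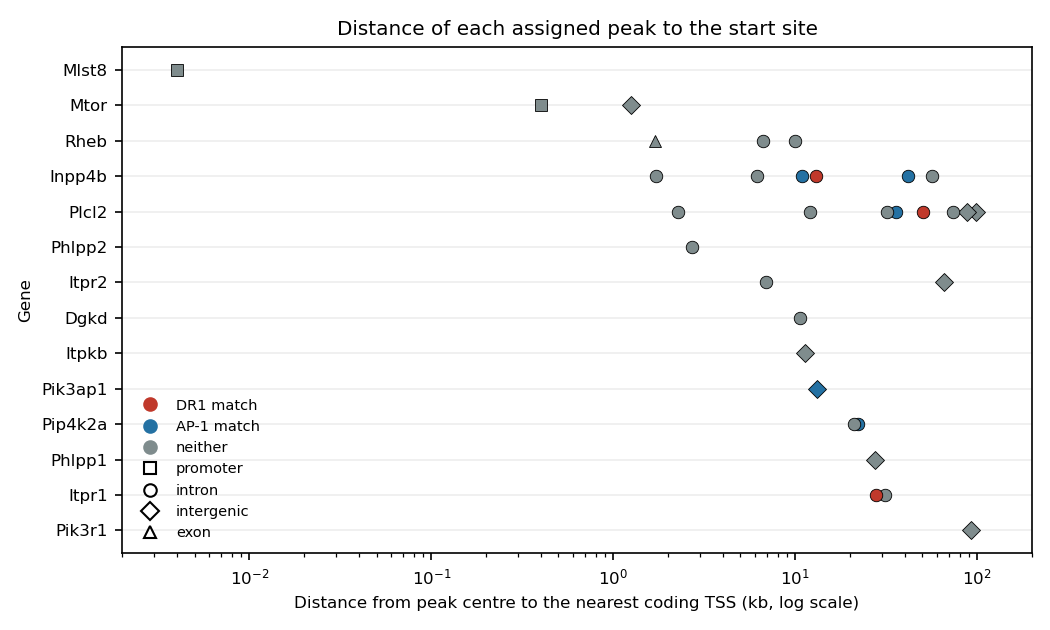
Distance from the centre of each of the 32 peaks to the nearest coding start site (x axis, kb, log scale) for the 14 genes (y axis), with shape giving the annotation class and colour the motif. The Mlst8 and Mtor promoter peaks sit furthest left, and the 3 DR1 peaks lie between 13.0 and 50.3 kb.

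Kinases were then set against phosphatases. Peaks were assigned to 3 of 10 phosphatase genes (30.0%, exact interval 6.67 to 65.2) and to 4 of 19 kinase genes (21.1%, 6.05 to 45.6), where 7.91% of all coding genes had one. The intervals overlap over most of their range, and the order of the shares turned with the assignment rule. Counting peaks inside a gene or within 10 kb of it gave 2 of 10 phosphatases and 6 of 19 kinases (31.6%), where 8.06% of all coding genes had a peak. Akt1 and Pip5k1c were added and Phlpp1 was lost. Basic transcripts gave 2 of 10 and 4 of 19 (21.1%), against 7.65% of all coding genes. The nearest start of any annotated gene gave 1 of 10 and 2 of 19 (10.5%), against 5.61% of all coding genes. Assignment within 10 kb and the first part of the file each gave 2 of 10 and 1 of 19 (5.26%), a wider gap than by the main rule. Over all coding genes these 2 rules gave 4.31% and 4.45%, close to the kinase share. DR1 peaks alone gave 1 of 10 and 0 of 19, against 1.84% of all coding genes. The other limits and 1 start per gene left both counts as reported. Phosphatase genes had larger territories (median 126 kb) than kinase genes (71.4 kb), and the part of this in the shares was not tested. By peaks rather than genes, phosphatases held 8, of which 6 were at Inpp4b, and kinases held 6. Of the phosphatase peaks 1 held DR1, 2 held AP-1 and 5 an AGGTCA core, and 7 of the 8 were intronic. Of the kinase peaks 0 held DR1, 1 held AP-1 and 2 an AGGTCA core, and 3 of the 6 were intronic. Over all 2537 peaks, 18.2% held DR1, 15.6% AP-1 and 25.7% the core, and 49.3% were intronic. Inpp4b alone, singled out for its peaks, held the DR1 peak, the 2 AP-1 peaks and 6 of the 7 intronic peaks of the phosphatases. With 8 and 6 peaks the groups are too small to set apart. With basic transcripts a DR1 peak inside the kinase gene Itpkb was assigned to that gene, so the DR1 counts also depended on the rule.

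**Figure D4:**
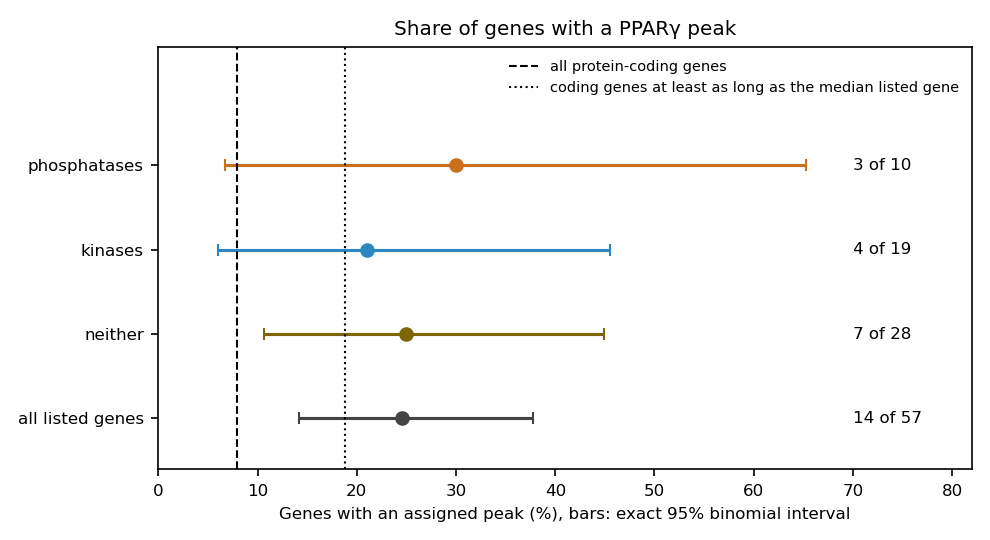
Share of genes with an assigned peak (x axis, %) among phosphatases, kinases, the remaining listed genes and all 57, with exact 95% binomial intervals as bars. Dashed and dotted lines give all coding genes (7.91%) and those at least as long as the median listed gene (18.8%); the bars of phosphatases and kinases overlap.

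The next description covers what the 32 peaks share. DR1 matches stood in 3 of them (9.38%, exact interval 1.98 to 25.0), against 18.2% of all 2537 peaks, which lies inside that interval. AP-1 matches stood in 5 (15.6%, 5.28 to 32.8), where all peaks gave 15.6% as well. The exact AGGTCA core, which is also contained in DR1 and is present in each of the 3 DR1 peaks, stood in 12 (37.5%, 21.1 to 56.3) against 25.7%. Inpp4b and Plcl2 held 2 of the 3 DR1 peaks, 3 of the 5 AP-1 peaks and 6 of the 12 core peaks. The intervals treat peaks as independent, though 14 of the 32 lie at these 2 genes, which were singled out for their peaks. In windows of the same length 2000 bp to either side of the peaks, DR1 matches stood in 0 of 64 windows for the listed genes and in 2.54% of all 5074, AP-1 in 1 and 3.29%, and the core in 5 and 10.8%. The RUNX site TGTGGT stood in 6 of the 32 peaks, and in 16.2% of all peaks. The GATA site AGATAA, for the family of the TH2 regulator GATA3, stood in 3 peaks against 14.3%. The STAT5 site TTCNNNGAA stood in 2 peaks against 8.83%. The ETS site CCGGAA stood in 0 peaks against 2.29%. Neither DR1 nor AP-1 was present in 24 of the 32 (75.0%, against 69.0% of all peaks).

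By annotation class, 21 of the 32 peaks were intronic (65.6%, exact interval 46.8 to 81.4; 49.3% of all peaks), 8 intergenic (35.9% of all peaks), 2 promoter (10.1%) and 1 exonic (4.73%). Of the 21 intronic peaks, 12 belonged to Inpp4b and Plcl2, and outside those genes 9 of 18 were intronic. The median distance to the start site was 13.1 kb (95% interval from order statistics 6.90 to 32.0), and 10.8 kb for all 2228 peaks within 100 kb of a coding start. With basic transcripts, and likewise with 1 start per gene, the median for the listed genes was 21.5 kb. More than 50% of the sequence was repeat-masked in 7 of the 32 (21.9%, 9.28 to 40.0; 8.87% of all peaks), 4 of them at Plcl2. Median GC content was 42.8%, and 43.4% over all peaks.

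Other genes of the same pathway, from a list of 119 annotated genes written by function, gave 19 with a peak (16.0%, against 7.91% of all coding genes). Of coding genes at least as long as the median listed gene 18.8% had a peak, and of those with at least the listed genes' median territory 14.5%. The length and territory of the 119 genes were not compared, and their list was written with earlier results of these data known. Among the 119, 4 of 24 further phosphatase genes and 5 of 27 further lipid or inositol kinase genes had a peak, as did 4 of 20 phospholipase C and diacylglycerol effector genes, 5 of 39 mTOR pathway genes and 1 of 9 PI3K or AKT genes. Promoter peaks lay 0.076 kb from the start of Inpp1, which encodes an inositol polyphosphate 1-phosphatase, 0.355 kb from Prkch, the gene of the diacylglycerol-activated kinase PKCη, and 0.901 kb from Plcxd2. The Prkch peak held a DR1 match, as did the nearest peaks of Fnip1, whose product binds folliculin in the nutrient branch of mTORC1 control (0.869 kb, 3 peaks in all), and of the lipid phosphatase family gene Mtmr7 (8.51 kb). The other genes among the 10 with the nearest peaks were the inositol kinase gene Itpk1 (3.47 kb), Lamtor3 of the lysosomal mTORC1 anchor (8.02 kb, with AP-1), the mTORC2 partner gene Prr5l (10.4 kb), and Pi4ka and Pi4kb (10.9 and 11.2 kb), which encode kinases that make the PIP2 precursor. DR1 peaks were assigned to 6 of the 119 genes (1.84% of all coding genes), and not all of the 6 are named here.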

How the data were processed

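One ChIP library and 1 input library were described by the labels, and the single deposited file is the authors' peak list. Per the submitters' processing notes and the series text, reads were aligned to mm10 with Bowtie2 and peaks called with HOMER; the version of either tool is not given in the sources used here. A peak, per the file headers, needed at least 8 tags (false discovery rate 0.001) and 4 times the density of the input and of the local 10000 bp, and only 1 tag per position was counted, so closely stacked signal is compressed. Uniquely mapped tags alone were used, which leaves out exact repeats. The deposited score is 1 in all 2537 rows and was not used. The other deposited values are start and end positions.

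Gene assignment took each 173 bp peak by its centre and the closest protein-coding TSS (GENCODE vM21, GRCm38, all transcripts) up to 100 kb away. Classes were tried in the order promoter (1000 bp upstream to 100 bp downstream of any annotated TSS), exon, intron, intergenic. Motifs were searched over the whole peak in the RefSeq GRCm38.p6 sequence. Territory is the sequence within 100 kb that is nearest to a gene's start sites.

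With 1 library no comparison between samples was possible, and no test was made. Binomial intervals are at 95%, by the exact method of Clopper and Pearson, for counting error only. The genes, lists and rules were chosen with earlier results of these data known. Named are all 57 genes and the 10 other pathway genes with the nearest peak; sequences shown whole were selected after their motif matches were known. 1 of the 120 other pathway symbols was absent from the annotation used. Assignment and motif search were tried on simulated data. The software was Python 3.11.15, pysam 0.24.0 for sequence, scipy 1.17.1 for intervals, pandas 2.3.3 and numpy 2.4.6 for tables, matplotlib 3.10.9 for figures.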

Additional observations from a re-analysis of the deposited data

How the results depend on the processing

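With 1 library and no tag count per peak, depth and replicate spread limit every count, and a gene without a peak is one at which none was called. Of 63 values under alternatives, 40 stayed close to the reported one, meaning a count within 1.5 times of it or a median distance inside the reported 95% interval, and 23 moved. Those 40 include the median distance of 21.5 kb with 1 TSS per gene and with basic transcripts, against 13.1 kb. They also include 22 peaks at listed genes with 1 TSS per gene, against 32. By gene body, 2 phosphatases against 3 and 6 kinases against 4 count as close as well, though the order of the shares turned. Assignment within 10 kb left 7 listed genes (4.31% of coding genes) and 11 peaks, 2 phosphatases, 1 kinase and 7 other pathway genes, with a median distance of 2.27 kb. The nearest start of any annotated gene, noncoding included, gave 9 listed genes (5.61%) with 21 peaks, 1 phosphatase and 2 kinases. DR1 peaks alone gave 3 listed genes (1.84%) with 3 peaks, 1 phosphatase, 0 kinases and 6 other pathway genes. The first part of the file, up to the middle row, gave 9 listed genes (4.45%) with 14 peaks, 2 phosphatases and 1 kinase. Assignment within 50 kb, without limit, with 1 TSS per gene and by gene body gave 13, 15, 12 and 14 listed genes (7.19%, 8.54%, 7.48% and 8.06% of coding genes). DR1 matches stood in 1 peak with 1 mismatch and in 11 with 3. AP-1 matches stood in 18 peaks with 1 mismatch, in 3 within 100 bp windows and in 8 within 400 bp windows. Promoters of 2000 bp on both sides of a TSS held 6 peaks. Narrower limits, fewer peaks and looser motifs change these counts by construction. No paired analysis was possible because there is 1 ChIP library.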

Other observations

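Beyond the 100 kb limit, 5 further peaks had one of the listed genes as nearest coding start, and just inside it stood the Plcl2 peak at 98.2 kb. Of the 5, 2 lay inside Inpp4b, 140.3 and 146.3 kb from different start sites, which brings the peaks within that gene to 8. From the 5′ end of the gene record these 2 peaks lie at 140.3 and 226 kb, in that order. The one at 146.3 kb (chr8:81568820-81568992) held the DR1 match AGGTCAAGAGTCA at chr8:81568969-81568981, 69 bp from its centre, with the changes A8G and G9A. Plcl1, without an assigned peak, had an intronic one at 122.7 kb from its nearest start, and Pik3r1 was nearest to peaks at 123.4 and 420.3 kb.

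A peak inside an intron of Itpkb (chr1:180404346-180404518) was assigned to Stum at 58.2 kb by all transcripts and to Itpkb at 73.9 kb by basic transcripts. It held the DR1 match AGCTCAAAGGTCA on the minus strand (chr1:180404421-180404433), with 1 mismatch, so the only DR1 peak within a kinase gene of the list depended on the assignment rule.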
